A study of Drosophila melanogaster with 4 samples.

Results

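Sequence U of the Drosophila melanogaster release 5 genome is a collection of scaffolds that could not be assigned to a chromosome, joined end to end under one name. The peaks described here are all peaks of the deposited list whose sequence name is exactly U, which excludes the separate collection Uextra. They number 523 of 9485 peaks, or 5.51% of the list. The list is the only processed data used, and it stands for 4 libraries of chromatin from whole embryos, 2 of ChIP DNA and 2 of input DNA.

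ChIP and input libraries share one background in the labels: strain Hr46-GFP, genotype PBac{y[+]-attP-3B}VK00033, a transgene with the Hr46 genomic coding region, the stage Embryo 0-8 and unknown sex. They differ in that the ChIP libraries were precipitated with a mouse monoclonal antibody whose listed target is tango, whereas input DNA had no antibody step. The sample titles name TCF instead and also carry the term nonISO1. The collection protocol names y; bw cn sp flies, so the precipitated protein and the stock cannot be settled from the labels. Whole embryos mix all cell types, and nothing in the labels says whether replicates were separate collections.

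Unplaced fly scaffolds come in large part from heterochromatin, the compact chromatin around centromeres and on the Y chromosome. Such DNA is rich in transposable elements and satellite repeats, and near-identical copies of one repeat can lie at many places. A sequencing read from a repeat may match several copies equally well, so a peak there can reflect reads that arose elsewhere. Sequence-specific factors such as tango, a partner of several bHLH-PAS proteins, or TCF, the DNA-binding partner of armadillo, are usually studied at enhancers of single-copy genes on the chromosome arms. No sequence is shown for the peaks, because a release 5 genome was not used here.

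The peaks on U ran from position 47354 to 10033381 (release 5, 1-based) and covered 542 kb, or 5.43% of that span. No 2 of them overlapped. Median peak width, counting both end bases, was 857 bp, and the middle 50% of peaks measured 378.5 to 1511.5 bp. The score of a peak is the value the authors deposited from their peak caller, on a scale that the file does not state. The median score was 50.13, with quartiles at 16.5 and 70.84. There is no replicate error behind any value, because the list holds 1 entry per peak for the whole series, so all comparisons below are descriptions without a test.

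Peaks on U fell into a low-scoring and a high-scoring set. The commonest step of 10 score points was 10 to 20, with 123 peaks, and the numbers then dropped to 22 peaks between 30 and 40 before they rose again to 73 peaks between 70 and 80. A score of 30, the lower edge of that dip, was used to separate the sets. This limit was set with earlier results of these data known. Under 30 lay 200 peaks, or 38.2%, with 92.0% before 6 Mb and 21.4% from 6 Mb on. In the whole list 40.9% of peaks scored under 30, so the share on U was near that background. Median score and width were 14.45 and 331.5 bp in the low-scoring set, and 68.2 and 1275 bp among the 323 high-scoring peaks. Just under the limit stood peaks at 8464052 to 8464998 (score 29.53) and at 8039488 to 8040771 (29.92), and just above it one at 8287926 to 8288270 (30.16).

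**Figure D1:**
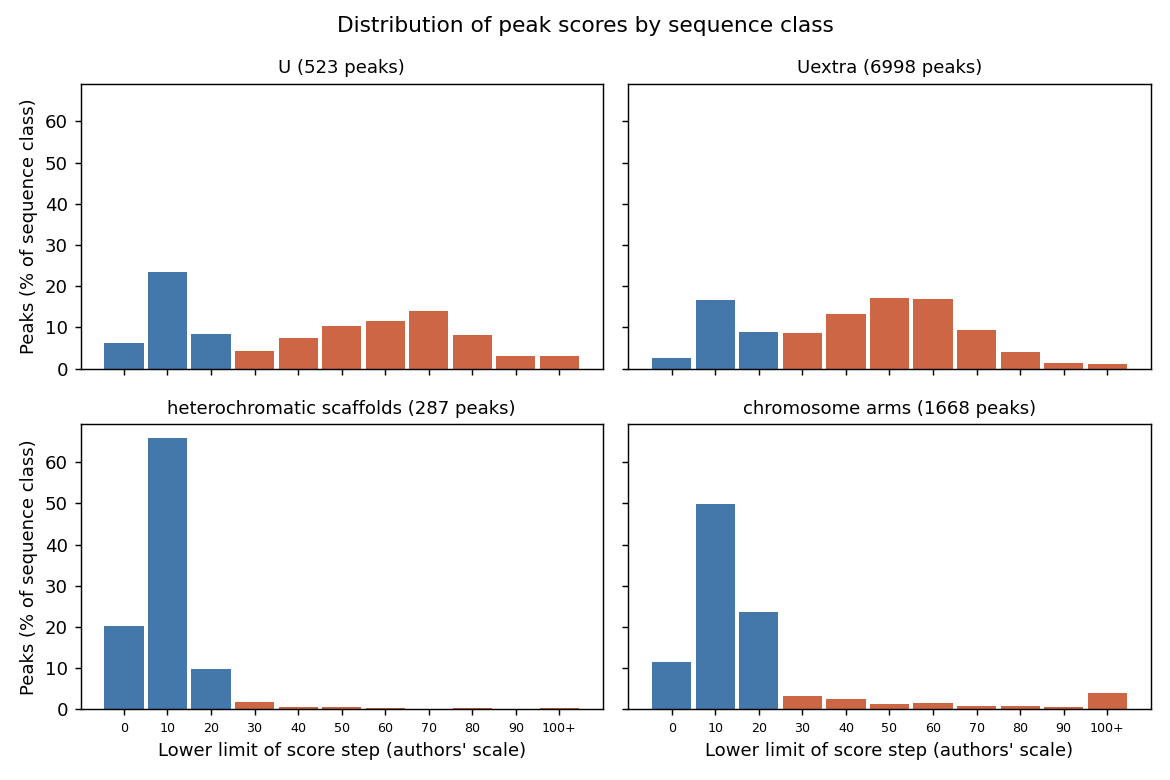
Share of peaks (%, vertical axis) in each score step of 10 (horizontal axis, lower limit of the step; the last bar holds 100 and above) for 4 sequence classes; blue bars are scores under 30 and orange bars scores of 30 or more. On U the shares fall to 4.21% between 30 and 40 and rise to 14.0% between 70 and 80. On Uextra they fall to 8.63% between 30 and 40 and rise to 17.2% between 50 and 60. On the heterochromatic scaffolds and the arms most peaks are in the blue bars.

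Among the other sequence classes, Uextra divided in a like way. Its shares were 16.7% between scores of 10 and 20, 8.63% between 30 and 40 and 17.2% between 50 and 60. The other classes lay mostly under 30. On Uextra 28.3% of 6998 peaks scored under 30, on the scaffolds assigned to heterochromatin of a chromosome (names ending in Het) 95.8% of 287, and on the 6 chromosome arms 85.0% of 1668. The low-scoring peaks of U had a median width of 331.5 bp, against 326 bp on Uextra, 360 bp on the Het scaffolds and 469 bp on the arms. Among high-scoring peaks the median was 1275 bp on U (interquartile range 892.5 to 1823 bp), 615 bp on Uextra (543 to 692 bp), 530.5 bp for 12 peaks on the Het scaffolds and 575 bp on the arms (455.5 to 724 bp).

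Wide peaks were frequent on U. A width of 1000 bp or more was reached by 223 of the 523 peaks (42.6%), against 8.27% in the whole list, 2.29% on Uextra and 22.1% on the arms. Peaks of 2000 bp or more made up 12.4% of U, with 65 peaks, against 2.20% in the whole list, 4 peaks (0.0572%) on Uextra and 134 peaks (8.03%) on the arms. The wide peaks of U also differed in score from those of the arms. Between 2000 and 3000 bp the median score was 75.64 for 55 peaks on U and 22.46 for 98 peaks on the arms. Between 1000 and 1500 bp it was 65.11 on U, 63.07 for 123 peaks on Uextra and 19.96 on the arms. At 200 to 300 bp the 4 classes lay close, with medians of 13.12 on U, 13.6 on Uextra, 10.44 on the Het scaffolds and 11.39 on the arms.

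The sets lay in different parts of U. In the bins of 1 Mb before 6 Mb there were 125 peaks, of which 115 scored under 30 (92.0%), and the median score was 13.58 (interquartile range 10.69 to 19.63). From 6 Mb on there were 398 peaks, of which 85 scored under 30 (21.4%), with a median of 60.49 (38.5 to 74.56). Median width was 342 bp before 6 Mb and 1102 bp after it. The change was uneven from bin to bin. Between 6.0 and 6.2 Mb all 5 peaks scored under 30, and in the 200 kb bins that followed 0 of 5, 5 of 7, 4 of 10, 4 of 10 and 8 of 18 peaks did, before the share fell to 2 of 9 in the bin from 7.2 Mb and 3 of 33 in that from 7.6 Mb. This boundary was placed after the profile was seen. U joins separate scaffolds, so its order need not be an order along a chromosome.

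Low-scoring peaks had similar medians on both sides of the boundary. Their median width was 331 bp before 6 Mb and 336 bp after it, and their median score 13.05 and 15.9. Over the first 6 bins the median score stayed between 11.98 and 16.82, and the median width between 250.5 and 384.5 bp. The Het scaffolds, with medians of 12.9 and 369 bp, gave values like these bins. High-scoring peaks were few at first, with 0 of 33 peaks in the first Mb and 1 of 28 in the second. They made up most of the later bins, where 18 of 103 peaks between 7 and 8 Mb and 18 of 154 between 8 and 9 Mb scored under 30. Peaks covered 16.5% and 20.7% of those 2 bins, against 1.37% of the first Mb.

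**Figure D2:**
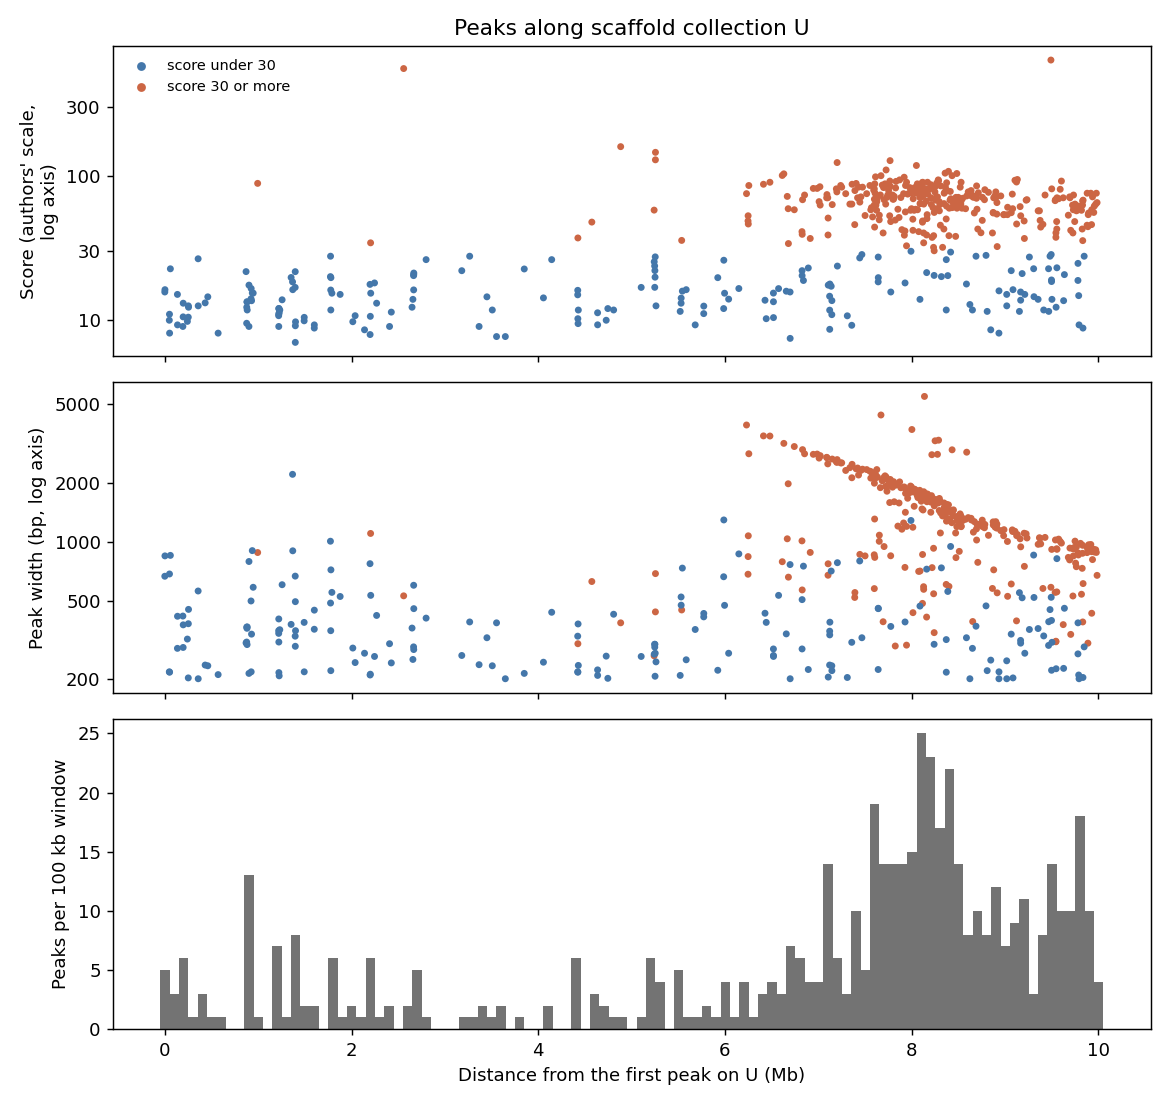
Score (upper panel, log axis), width in bp (middle panel, log axis) and number of peaks per 100 kb window (lower panel) against the distance in Mb from the first peak on U; each point is 1 peak, blue for scores under 30 and orange for 30 or more. Orange points crowd the later part. Many of their widths trace a narrow band that descends from over 3000 bp to under 1000 bp. Other orange points and most blue points lie beneath it, and a few orange points lie above it.

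The widths of high-scoring peaks fell along U from 7 Mb on. Before that, the median was 1939.5 bp for 6 peaks in the bin from 6 Mb and 1974 bp for 13 peaks in the bin from 6.5 Mb, with wide interquartile ranges (899 to 3295.75 bp and 883 to 2945 bp). Between 7 and 7.5 Mb the median width of 25 such peaks was 2492 bp (interquartile range 2187 to 2637 bp). In the bin from 7.5 Mb it was 1937.5 bp for 60 peaks, in that from 8 Mb 1609 bp (1366 to 1749 bp) for 93 peaks, and in that from 8.5 Mb 1224 bp (1141.5 to 1282 bp) for 43 peaks. The fall went on to 1047.5 bp (964 to 1100 bp) for 24 peaks from 9 Mb and 878 bp (587 to 933 bp) for 45 peaks from 9.5 Mb. Scores changed less, with a median of 74.03 between 7 and 7.5 Mb, 69.78 between 8.5 and 9 Mb and 58.08 between 9.5 and 10 Mb. Across the 313 high-scoring peaks from 6 Mb on, Spearman's rho with position was -0.57 for width and -0.21 for score. Over all 523 peaks rho for position and width had the other sign, 0.22, and the first bins held mostly narrow low-scoring peaks. These coefficients are across peaks of 1 list, with no p-value.

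**Figure D3:**
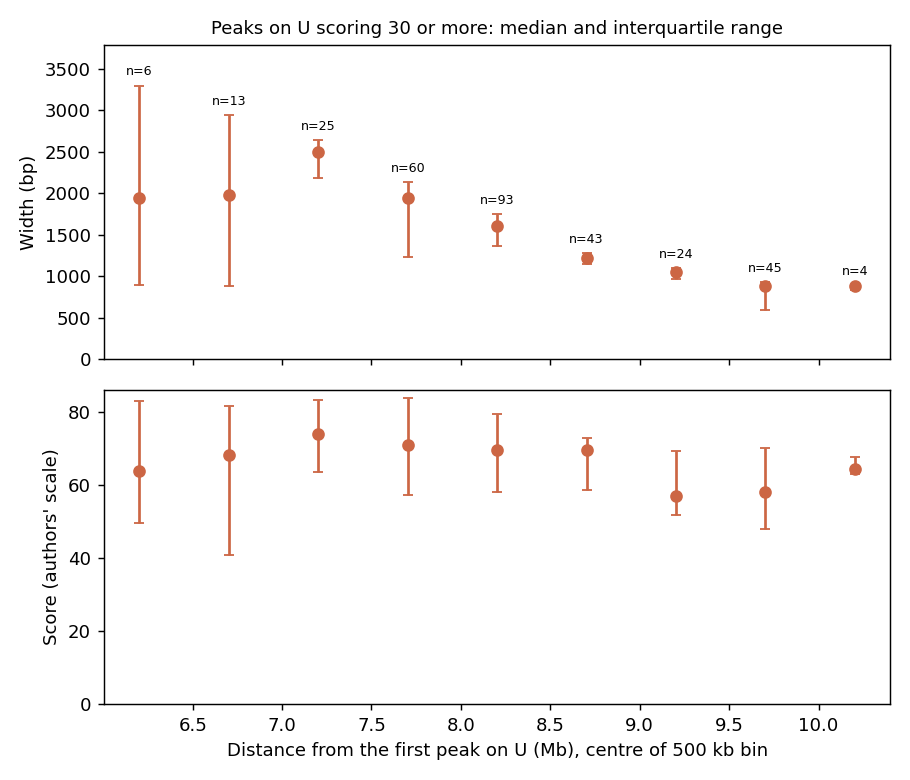
Median (points) and interquartile range (bars) of width in bp (upper panel) and of score (lower panel) for peaks on U scoring 30 or more, in bins of 500 kb from 6 Mb on, against the distance in Mb from the first peak; n is the number of peaks. The 2 bins before 7 Mb lie lower, at 1939.5 and 1974 bp, and median width then falls from 2492 to 878 bp between the bins starting at 7 and 9.5 Mb, while the median score stays between 57.1 and 74.03.

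Neighbouring high-scoring peaks were close to one width. Each was set against the local width, the median of up to 15 high-scoring peaks on either side. Of the 313 from 6 Mb on, 194 (62.0%) lay within 10% of the local width, and 75 (24.0%) were narrower than 80% of it. Of the low-scoring peaks there, measured against one another, 17.6% of 85 lay within 10%. On Uextra the share for high-scoring peaks was 62.7% of 5018, and on the arms with enough such peaks it was 18.1% of 249. Fewer peaks on Uextra, 10.9%, were narrower than 80% of the local width, and on the arms 25.7% were. Within 20% of it lay 71.9% on U, 84.3% on Uextra and 41.0% on the arms. Peaks on either side were taken by order at any distance, and distances were not matched between the classes. Peaks within 10% of the local width had a median score of 70.45, and those under 80% of it 48.55.

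A smaller set of 13 peaks exceeded 120% of the local width, and 9 of them lay beyond 7 Mb. Their median score was 83.89. The widest peak on U, from 8184027 to 8189519, measured 5493 bp with a score of 81.67 and had 329% of the local width of 1671 bp. The second, at 7718131 to 7722549, measured 4419 bp with a score of 100.06 and had 219% of 2014 bp. The peak at 8049211 to 8052938 measured 3728 bp (score 76.18) and had 212% of 1758.5 bp. The other 6 beyond 7 Mb ranged from 169% to 232%. Among the 5 widest were also the peaks at 6278023 to 6281952 (3930 bp, score 75.14) and 6459587 to 6463045 (3459 bp, score 87.28), where high-scoring peaks were too sparse for a stable local width.

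Uextra showed the same direction of change at smaller widths. High-scoring peaks there had a median width of 852.5 bp (784 to 901 bp) in the first 5 Mb, falling to 654 bp in the 5 Mb after 10 Mb and to 509 bp in those after 25 Mb. The last full bin of U, at 878 bp, was thus near the first values of Uextra.

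Score and width rose together on U. Across all 523 peaks Spearman's rho was 0.80, against 0.67 on Uextra, 0.60 on the Het scaffolds and 0.53 on the arms. The coefficient was lower inside each set, where rho was 0.38 within the 200 low-scoring and 0.50 within the 323 high-scoring peaks. Median width climbed from 331 bp for scores between 10 and 20 to 849 bp between 40 and 50, 1591 bp between 70 and 80 and 1967 bp between 80 and 90. On Uextra the same steps went from 297 to 581 and 642 bp and then to 649 bp. On U the median width was lower again at higher scores. It was 1758 bp for 16 peaks between 90 and 100 and 1492 bp for 16 peaks of 100 or more. Uextra had 650 bp between 90 and 100 and a lower value, 618.5 bp, for 78 peaks of 100 or more. The arms had 616 bp for 68 peaks of 100 or more. Of the 65 peaks of 2000 bp or more, 64 scored 30 or more. The exception lay in the early part, at 1415580 to 1417784, with 2205 bp and a score of 18.35.

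**Figure D4:**
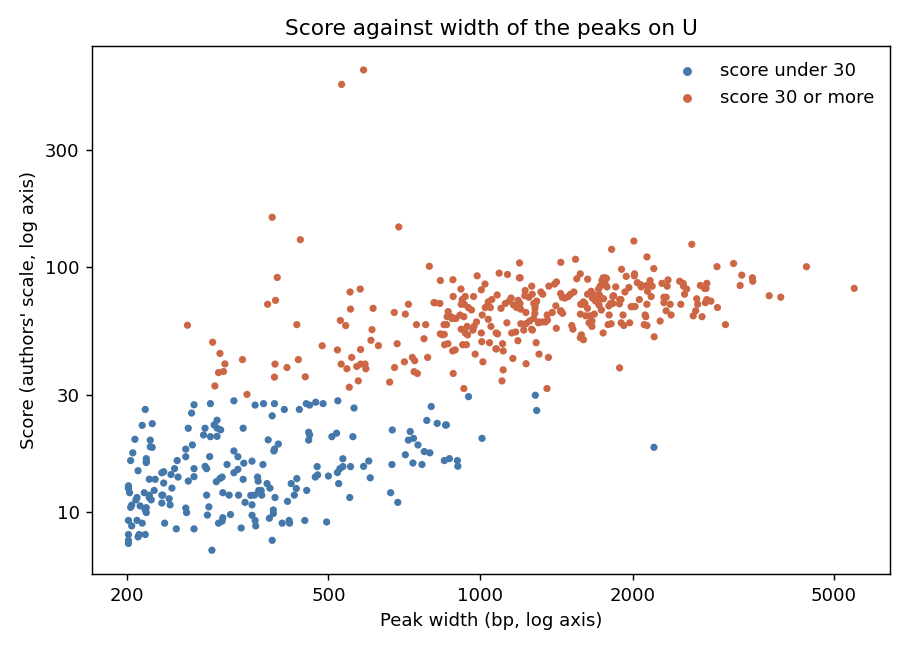
Score (vertical, log axis) against width in bp (horizontal, log axis) for the 523 peaks on U; each point is 1 peak, blue for scores under 30. The cloud rises to the right, and 5 narrow peaks of 387 to 689 bp stand above it with scores from 128.97 to 635.

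The 5 highest-scoring peaks did not follow that trend. A score of 100 or more was reached by 16 peaks on U (3.06%), against 1.76% in the whole list, 1.11% on Uextra and 4.08% on the arms. Of these, the 5 highest were 387 to 689 bp wide. The other 11, with scores from 100.06 to 127.32, had a median width of 2012 bp (range 792 to 4419 bp) and all lay beyond 6 Mb. By contrast, 4 of the 5 highest lay before 6 Mb, among peaks of low score.

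The highest score on U, 635, belonged to a 587 bp peak from 9538394 to 9538980. Its nearest neighbours, 9072 bp before and 2454 bp after it, scored 27.65 and 28.4. The second, 554.39, belonged to a 531 bp peak from 2605804 to 2606334, with 132167 bp free of peaks before it and 89196 bp after it, and neighbours of 11.32 and 12.24. No peak on U scored between these and 159.19, the score of a 387 bp peak from 4930129 to 4930515 whose neighbours, at 75048 and 219335 bp, scored 11.71 and 16.8. The next in rank were a pair of adjoining peaks, at 5302786 to 5303474 (145.38) and 5302210 to 5302649 (128.97), 136 bp apart. Scores of this pair stood beside 27.36 on one side and 12.51 on the other. Wide peaks among the 10 highest had neighbours of both kinds. That at 7815522 to 7817533 (2012 bp, score 127.32) lay between peaks 236 and 220 bp away that scored 91.86 and 84.46. The next was a 2620 bp peak from 7248482 to 7251101 (123.48) between neighbours of 77.27 and 23.62. Those at 8097559 (1818 bp, 117.79) and 7773050 (2136 bp, 109.72) stood between neighbours of 58.57 and 83.34 and of 63.58 and 70.84. The last of the 10, at 8441130 (1542 bp, 107.28), stood between 20.28 and 38.38.

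The lowest scores came from narrow peaks in both parts. The lowest, 6.98, was a 294 bp peak from 1445095 to 1445388. The 10 lowest scores ended at 8.53, their widths ranged from 201 to 387 bp, and 3 of them lay beyond 6 Mb, at 6745459 (7.44), 8981580 (8.09) and 8894035 (8.53). The narrowest width was 201 bp, shared by 7 peaks on U and also the narrowest on the other 3 sequence classes. Of the 5 listed first, the scores ran from 7.44 at 6745459 to 12.78 at 8670482.

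Before 6 Mb there were 10 high-scoring peaks, and 3 of them (57.75, 128.97 and 145.38) lay in one stretch from 5288491 to 5303474. Of those outside it and below 100, a score of 88.53 stood at 1041883 to 1042764 (882 bp), 47347 bp after a peak of 15.34 and 224120 bp before one of 10.69. The other 4 scored between 34.24 and 47.69. After a high-scoring peak in this part the next peak was high-scoring in 1 of 10 cases, and after a low-scoring one in 9 of 114 (7.89%). From 6 Mb on the shares were 262 of 312 (84.0%) after a high-scoring peak and 51 of 85 (60.0%) after a low-scoring one. Among neighbours at most 5 kb apart in the later part they were 149 of 171 (87.1%) and 21 of 42 (50.0%), so a high-scoring peak was followed by another one more often than a low-scoring peak was. Neighbouring peaks are not independent, and no test was made.

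Spacing varied over several orders of magnitude. Between neighbouring peaks there were 522 gaps, the shortest of 51 bp and the longest of 381715 bp, with a median of 4814.5 bp and quartiles at 757.5 and 13645.75 bp. The median gap was shorter in the other classes, at 2102 bp on Uextra, 1592 bp on the Het scaffolds and 2578 bp on the arms. Gaps of at most 500 bp numbered 115 on U (22.0%), against 19.3% on Uextra, 35.2% on the Het scaffolds and 39.4% on the arms. The widest distance without a peak lay between 2846503 and 3228219. All 5 of the widest lay before 6 Mb. Gaps over 100 kb numbered 21 within that part and 2 within the later one, where the median gap was 4529 bp, against 7926.5 bp before 6 Mb.

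Peaks were concentrated in few windows. Of 101 windows of 100 kb, 16 held no peak and 21 held 10 or more, and those 21 contained 309 peaks (59.1%). Windows were not counted on the other classes, where median gaps were shorter than on U. In the densest, from 8100001 to 8200000, there were 25 peaks that covered 38.8% of the window, their scores had a median of 72.43, and 1 of them scored under 30. The next were those from 8200001 (23 peaks, median score 63.07), 8400001 (22 peaks, 65.11) and 7600001 (19 peaks, 62.57). After these came the window from 9800001, with 18 peaks, a median score of 57.3 and a covered share of 10.9%, in which the median width was 673 bp against 1690 bp in the densest. Only 1 window before 6 Mb reached 10 peaks, from 900001 to 1000000, where all 13 peaks scored under 30 with a median of 13.58.

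Joining peaks at most 5 kb apart left 145 peaks on their own among 254 groups, and 23 groups were stretches of 5 or more. The 23 stretches contained 151 peaks (28.9%). They were 3.98 to 42.5 kb long (median 12.0 kb), and peaks covered 20.2 to 74.2% of each. Scores inside them had a median of 48.09, against 51.6 for the 372 peaks outside. Before 6 Mb the medians were 14.92 inside and 13.35 outside, and from 6 Mb on they were 63.07 and 59.56. Low-scoring peaks made up 19 of 110 inside (17.3%) and 66 of 288 outside (22.9%) from 6 Mb on. The number of stretches depended on the distance allowed, with 3 at 1 kb and 30 at 10 kb.

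Stretches were of 3 kinds. In 5 of them no peak scored under 30, in 4 all did, and 14 were mixed. All 4 stretches of low-scoring peaks lay before 6 Mb, starting at 924114, 1266885, 1443786 and 1821488, with median scores from 9.69 to 19.63 and lengths from 3.98 to 6.17 kb. The longest stretch, from 7640438 to 7682944, held 12 peaks scoring 44.02 to 98.28, and 7 of them were 2124 to 2331 bp wide. From the peak at 7654827 on, successive starts there were 4717 and 4747 bp apart and then 7116, 2187 and 7216 bp apart. Earlier starts in the stretch were 5395, 950, 975, 2284, 1366 and 3419 bp apart, so like values in succession occurred there only at 950 and 975 bp. Another 12 peaks lay from 8157246 to 8189519, scoring 34.25 to 90.13, with 5 peaks of 1690 to 1798 bp and another pair of 1452 and 1470 bp, and this stretch ended in the widest peak on U.

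The stretch from 5288491 to 5303474 was unlike these. It held 9 peaks, the first of 57.75 and the next 6 between 16.82 and 27.36, and ended in the adjoining pair of 128.97 and 145.38. Its peaks were 207 to 689 bp wide and covered 20.2% of its length. The stretches from 8129428 to 8150861 and from 8203120 to 8223740 held 8 peaks each, with median scores of 70.84 and 60.2, and in each 1 peak scored under 30 (13.88 and 21.28).

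**Figure D5:**
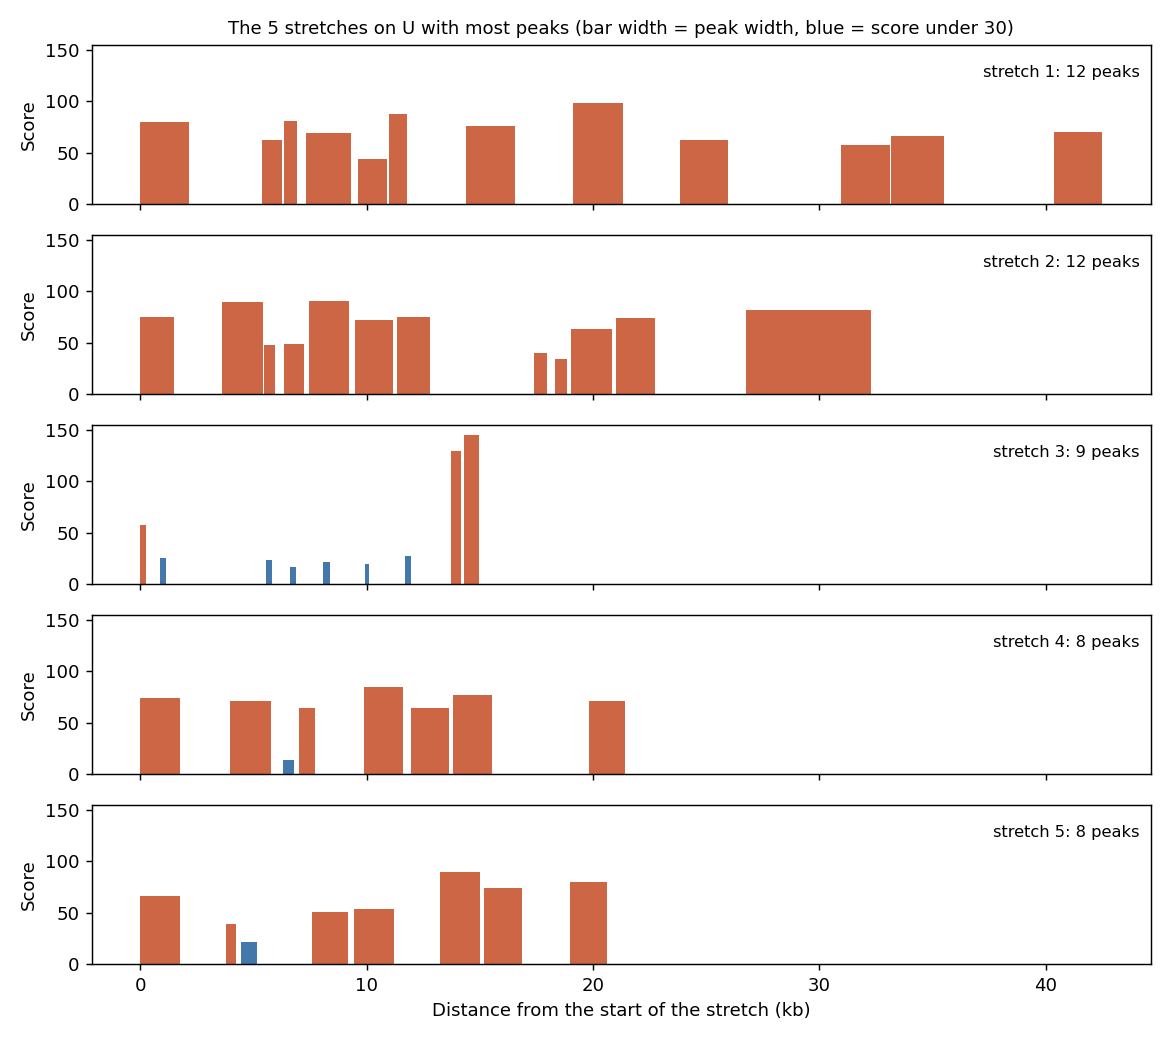
Score (vertical axis, from 0) of each peak in the 5 stretches on U with most peaks, against the distance in kb from the start of the stretch; bars are as wide as the peaks and blue marks scores under 30. Stretches 1, 2, 4 and 5 consist mainly of wide bars of like width, while stretch 3 has thin bars that end in the pair of 128.97 and 145.38.

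Exact scores recurred. The 523 peaks had 272 distinct scores, and 364 peaks (69.6%) shared theirs with another peak on U. Within the other classes the share was higher, at 90.7% of 6998 peaks on Uextra, 74.6% of 287 on the Het scaffolds and 76.1% of 1668 on the arms. The commonest, 70.31, occurred on 10 peaks from 379 to 2691 bp wide, and also on 43 Uextra peaks and 1 arm peak. A score of 63.58 occurred 7 times on U, 61 times on Uextra and 1 time on the arms. Of the low scores, 11.71 was commonest, with 8 peaks on U, 32 on Uextra and 17 on the arms. Recurrence was general in the list, which had 1390 distinct scores in 9485 peaks. Widths at one score could lie far apart, as for 70.31, or close, as for peaks of 2787 and 2796 bp that both scored 81.67. Only 2 peaks on U shared both score and width, but an exact match in bp is a strict demand.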

How the data were processed

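The authors deposited 1 peak list in GFF3 format for the whole series. Per the file headers its coordinates are on FlyBase release 5 and its source is MACS, and the score of each peak has no stated scale. The submitters' processing notes name BWA, MACS2, the build BDGP5 and CASAVA in versions 1.7.0.2 and 1.7.0.3, without roles. Not given in the sources used here are the peak threshold, the placement of reads matching several copies, the use of input and any pooling of replicates, and each can change how many peaks lie on U and how they score. Read depth is unknown. The start and end columns, other positional values the authors deposited, gave widths. Windows and bins take a peak by its midpoint.

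The members and rules were chosen with earlier results of these data known. Named peaks are the 10 highest and 10 lowest scores, the 5 widest and narrowest, the 5 densest windows, the 5 fullest stretches and the peaks at the limit of 30; the high-scoring peaks before 6 Mb, peaks above the local width and other stretches were named after their values were seen. Functions were tested on simulated data with planted stretches. Tables were made in Python 3.11.15 with pandas 2.3.3, numpy 2.4.6 and scipy 1.17.1, and plots with matplotlib 3.10.9.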

Additional observations from a re-analysis of the deposited data

How the results depend on the processing

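No paired analysis was possible because a single list serves the whole series, with no values per library, and for the same reason no replicate was left out. The share of low-scoring peaks, 38.2%, was 34.4% with a limit of 25, 42.4% with a limit of 40, 36.5% after merging peaks closer than 500 bp and 21.4% from 6 Mb on. For score and width, Spearman's rho of 0.80 became 0.38 within low-scoring and 0.50 within high-scoring peaks, where the range of scores is narrower by construction. It was 0.75 from 6 Mb on and 0.81 without the 2 peaks scoring over 500, and Pearson's r on log2 values was 0.79. The 23 stretches numbered 3 with a gap limit of 1 kb, 30 with 10 kb, 16 from 6 Mb on and 10 with only peaks scoring 30 or more, which leaves fewer peaks. The densest window held 25 peaks, 14 in windows of 50 kb (from 8250001), 40 in windows of 200 kb (from 8000001) and 24 when shifted by 50 kb or with only high-scoring peaks. The spread between the lowest and highest bin median score, over bins with 20 or more peaks, was 56.8 points in bins of 1 Mb, 50.3 in bins of 2 Mb and 34.3 in bins of 500 kb, where no bin with a median under 35.3 held enough peaks. The settings that begin at 6 Mb or leave out the 2 highest peaks were chosen after seeing the data. Without values per library, the part of ChIP and input reads in any peak could not be assessed.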
